A study of Homo sapiens with 6 samples.

Results

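The libraries compared here were the 2 that the labels assign to H2030, a lung adenocarcinoma line, 1 with an empty vector and 1 with a vector for malin, the product of NHLRC1. They were taken by cell line label and joined gene by gene, and they are 2 of the 6 libraries in the series. The other 4 came from A549 and H1299, lung tumour lines that also had 1 library of each vector, and all 6 were labelled passage 5. The labels call the genotype of the control "empty vector" and that of the malin library "NHLRC1-overexpression", and they name neither the promoter of the vector nor whether the cells were a clone. The identity of the line is uncertain: the column of the control is headed H2030, whereas that of the malin library is headed with a short name of HEK293T, an embryonic kidney line. It is called the line labelled H2030 below. Messenger RNA levels were deposited as FPKM, that is fragment numbers divided by transcript length and by the library total. Of 19903 genes, the 9532 with a mean of at least 5 FPKM in the pair were compared, as the log2 ratio of FPKM + 1 with malin to that with the empty vector. ZNF526, at a mean of 5.0 FPKM, was the last gene inside this limit, and FOXA1, at 4.99, the first outside it. With 1 library a side there was no replicate check, no test and no p-value, so "higher" and "lower" describe these libraries and not the vectors.

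Malin is an E3 ubiquitin ligase that works with laforin, a glycogen phosphatase, and loss of either causes Lafora disease, in which poorly branched glycogen collects in cells. Several stress programmes turn up below. In the integrated stress response, kinases that sense lack of amino acids, misfolded protein in the endoplasmic reticulum, haem shortage or viral RNA phosphorylate the initiation factor eIF2, and translation of the transcription factor ATF4 then rises and drives genes for amino acid uptake, synthesis and charging onto tRNA. In the heat shock response, the factor HSF1 binds heat shock elements when chaperones are occupied. When membranes lack sterol, the SREBP factors leave the endoplasmic reticulum, where INSIG1 otherwise holds them, and switch on cholesterol synthesis.

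The deposited values imply about 8350000 fragments for the empty-vector library and 9850000 for the malin library, against 9500000 to 10200000 in the other 4. The median gene compared held an estimated 442 and 507 fragments. At least 1 FPKM was reached by 13179 genes with the empty vector and 12992 with malin, against 11861 to 12039 elsewhere. Across the 9532 genes, which are not independent replicates, the libraries of the pair correlated at r = 0.962 with each other. With the other 4 they correlated at 0.786 to 0.805. On the same genes, the A549 libraries correlated with each other at 0.996 and the H1299 libraries at 0.997.

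Carcinoma surface markers were low in the line labelled H2030. Members of the kidney, lung, epithelial, neuronal, fibroblast and immune lists stood above the other lines, several of them near 0 FPKM. Of 21 carcinoma surface and calcium-binding genes, 16 were below the other 4 libraries in both, and their summed level was 712.7 FPKM with the empty vector and 568.7 with malin, against 3520.3 to 8916.3 elsewhere. Of 12 embryonic kidney genes, 7 lay above the other 4 libraries, with a summed level of 90.7 and 81.7 FPKM against 15.8 to 25.8. Among them were SIX2 (5.27 and 6.28 FPKM), SALL1 (9.11 and 9.9 FPKM) and HOXD10 (30.16 and 16.59 FPKM), whereas PAX8 was listed at 0 in both. The 12 lung lineage genes summed to 13.0 and 17.7 FPKM, a level between the 3.9 and 4.1 of H1299 and the 19.7 and 21.5 of A549. SOX2, the highest of these with malin, was at 3.67 and 5.65 FPKM. Of the 12 lung lineage genes, 3 lay above the other 4 libraries in both and 0 below. Epithelial markers were split: 7 of 18 lay above the other 4 libraries in both, EPCAM (8.55 and 5.41 FPKM) and the splicing factor ESRP2 (7.94 and 12.17 FPKM) among them, and 5 lay below. Others of the 7 were near 0, such as RAB25 (0.6 and 0.31 FPKM) and ST14 (0.04 and 0.13 FPKM). Of the 18, 4 reached 5 FPKM in each library of the pair. The epithelial sum of 197.5 and 177.1 FPKM, against 957.4 to 3986 elsewhere, was mostly the keratins KRT8 (88.15 and 77.56 FPKM) and KRT18 (83.22 and 72.94 FPKM). TM4SF1 was at 0.155% and 0.128% of its A549 level and at 0.0781% and 0.0645% of its H1299 level. Of 12 fibroblast and endothelial markers 7 lay above the other 4 libraries, with a sum of 36.5 and 38.0 FPKM against 0.7 to 5.7. PDPN made up 23.51 and 21.35 FPKM of this sum, and 2 of the 12 reached 5 FPKM in each library. VWF (0.08 and 0.05 FPKM) and CDH5 (0.06 and 0.05 FPKM) were among the 7. The 9 immune markers summed to 7.9 and 7.7 FPKM, with 3 above the other 4 libraries and 1 below. Of 14 neuronal markers 7 lay above the other 4 libraries, the neurofilament genes NEFM (30.53 and 52.62 FPKM) and NEFL (23.43 and 31.69 FPKM) among them, and 3 below. The neuronal sum of 309.4 and 371.0 FPKM, below the 616.8 to 796.8 of the other 4, was mostly UCHL1 (209.31 and 255.75 FPKM). Within the pair, 4 of 10 measured carcinoma surface genes were at least 1.5-fold lower with malin: S100P, ANXA1, LGALS3 and ANXA3. The part of these differences in the results below was not tested. In bulk RNA, fewer cells of a kind and less RNA per cell cannot be told apart.

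NHLRC1 was higher in the malin library but stayed low, at 0.18 and 3.69 FPKM (here and below, the empty vector is given first and malin second). The ratio of 20.5 rested on an estimated 3 and 78 fragments, with a 95% exact binomial interval of 7.27 to 109, which like all intervals below covers counting error only. Its malin level was below that of A549 (6.82 FPKM) and H1299 (119.2 FPKM). The log2 difference of NHLRC1 was 1.99 here, 1.82 in A549 and 4.96 in H1299. Whether NHLRC1 bears on the size of the other differences was not tested. EPM2A, which encodes laforin, was at 2.96 and 1.56 FPKM (ratio 0.527, interval 0.337 to 0.823) from an estimated 56 and 35 fragments. Neither gene reached the mean of 5 FPKM.

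More genes were lower than higher with malin. By at least 2-fold, 39 genes were higher (0.409% of the 9532) and 133 were lower (1.4%). By at least 1.5-fold, the fold used for gene lists below, 400 were higher (4.2%) and 634 lower (6.65%). The excess of lower genes at 1.5-fold depended on the scaling: higher genes made up 38.7% of those past that fold as deposited and 49.9% after median-of-ratios scaling, which gave 515 higher and 518 lower. The median difference was -0.02 as deposited and 0.04 with that scaling. C10orf10 (1.002 on the log2 scale) was the last gene counted as 2-fold higher and HK1 (0.992) the first left out, and AKIRIN2 (-1.006) and TCTN1 (-0.999) were their counterparts among lower genes.

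**Figure D1:**
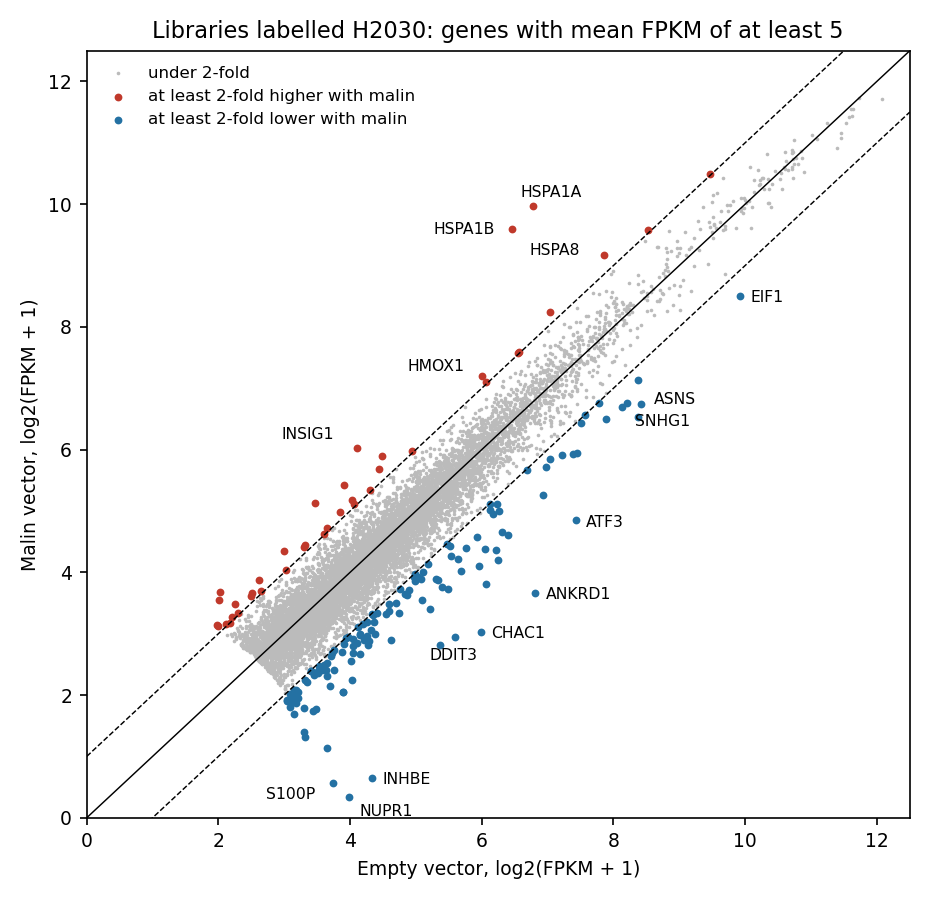
Level of each of 9532 genes in the libraries labelled H2030, as log2(FPKM + 1) with the empty vector (horizontal) and with malin (vertical); the solid line marks equal levels and the dashed lines 2-fold differences on this scale. HSPA1A and HSPA1B lie far above the upper line, and INHBE, NUPR1, S100P, ANKRD1 and CHAC1 far below the lower one.

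The same 9532 genes differed far less between the vectors in the other lines. They were chosen by their level in the pair, so genes near 0 FPKM in A549 or H1299 were kept. For those, the 1 added to FPKM holds the difference near 0, and its part in the contrast was not tested. The log2 differences had an SD of 0.389 in the line labelled H2030, against 0.163 for A549 and 0.138 for H1299. The share of genes within 1.2-fold was 56.5%, 91.1% and 94.9% in the same order. At 2-fold, A549 had 3 genes higher and 0 lower, and H1299 had 5 higher and 2 lower.

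**Figure D2:**
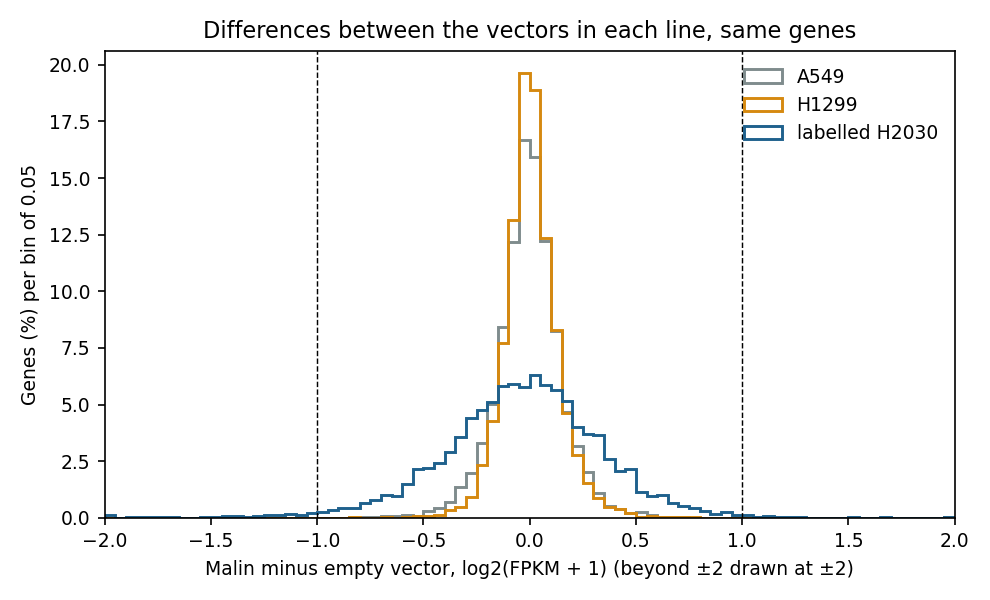
Distribution of log2 differences (malin minus empty vector, log2(FPKM + 1), horizontal) of the same 9532 genes in A549, H1299 and the line labelled H2030, as a percentage of genes per bin of 0.05 (vertical); dashed lines mark 2-fold. The curve of the pair labelled H2030 is the broadest, with an SD of 0.389.

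Genes of the integrated stress response were lower with malin, most of them from a level in the empty-vector library above that of any other library. Of 18 measured members of 20 listed, 12 were lower and 1 higher by at least 1.5-fold, with a median log2 difference of -1.43 against -0.02 over all genes. In 13 of the 18 the empty-vector library was the highest of the 6. The same held for 3018 of all 9532 genes and for 492 of the 634 lower by 1.5-fold. ATF4 itself, the central transcription factor, differed little, at 512.88 and 406.33 FPKM (-0.34 on the log2 scale). Both values were above the 123.68 to 187.78 FPKM of the other 4 libraries.

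The transcription factors downstream of ATF4 were lower. ATF3, a stress-induced factor, was at 170.99 and 27.82 FPKM (control to malin ratio 6.15, interval 5.59 to 6.76), while the other lines held 1.0 to 2.49 FPKM. DDIT3, which encodes the pro-apoptotic factor CHOP, was at 47.19 and 6.74 FPKM, so its malin level was under the 9.28 to 19.92 FPKM of the other lines. CEBPG, the dimer partner of ATF4, was at 64.97 and 19.84 FPKM. Of these 3 factors, only ATF3 thus stayed above the other lines with malin. ATF5, another factor of this response, was at 7.88 and 8.28 FPKM.

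Effectors of the response were lower as well. NUPR1, a small stress-induced chromatin protein, was at 14.84 and 0.26 FPKM, an estimated 362 and 7 fragments (control to malin ratio 57.1, interval 29.3 to 153). CHAC1, which degrades glutathione, was at 62.63 and 7.14 FPKM (-2.97 on the log2 scale). PPP1R15A, the phosphatase subunit that reverses eIF2 phosphorylation, was at 65.99 and 13.06 FPKM (control to malin ratio 5.05, interval 4.45 to 5.76). These 3 genes had their highest level of all libraries with the empty vector. TRIB3, a pseudokinase that restrains ATF4, was at 36.11 and 9.55 FPKM. SESN2, an amino acid sensor that inhibits mTORC1, was at 50.6 and 15.28 FPKM. EIF4EBP1, the translation repressor controlled by mTORC1, was at 236.43 and 89.11 FPKM, and both values lay above the 66.04 to 78.71 FPKM of the other lines.

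The eIF2 kinases did not share one direction. EIF2AK4, which encodes the amino acid sensor GCN2, was the 1 list member higher by 1.5-fold, at 11.94 and 18.45 FPKM. EIF2AK3, the kinase PERK of the endoplasmic reticulum, was lower, at 8.29 and 4.59 FPKM. EIF2AK1 and EIF2AK2, the haem and double-stranded RNA sensors, stood at 53.9 and 56.64 FPKM and at 9.93 and 13.33 FPKM, both under 1.5-fold.

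The starts of these genes were searched for the core of the amino acid response element, the composite site where ATF4 binds with a C/EBP partner. The letters searched were TGATGNAA, on both strands, in the 250 bases before each RefSeq start (GRCh38.p14). A gene with several promoters counted if any of them held the letters. Of the 4 amino acid and stress lists described here, 32 lower members had a promoter in the table and 9 (28.12%) held the letters: AARS, ASNS, ATF3, BCAT1, CEBPG, CHAC1, GARS, IARS and SLC1A5. They stood in 4 of 30 other members of the lists (13.33%), in 152 of 7860 genes compared (1.93%), and in 27 of 515 (5.24%) of all genes lower by 1.5-fold. Below are promoters of 4 of the 9 genes, ones that carry the stress and amino acid results, with the letters in capitals. Each is the first promoter of its gene that held the letters, and need not be its main start. In CHAC1 the capitals read as TGATGCAA on the opposite strand.
CHAC1 (chr15:40953221-40953470, plus strand): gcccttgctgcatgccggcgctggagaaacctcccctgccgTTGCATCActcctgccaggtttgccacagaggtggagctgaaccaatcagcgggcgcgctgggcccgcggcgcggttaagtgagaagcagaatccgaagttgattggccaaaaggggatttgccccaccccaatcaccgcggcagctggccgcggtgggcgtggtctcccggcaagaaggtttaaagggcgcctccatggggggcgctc
ASNS (chr7:97872409-97872658, minus strand): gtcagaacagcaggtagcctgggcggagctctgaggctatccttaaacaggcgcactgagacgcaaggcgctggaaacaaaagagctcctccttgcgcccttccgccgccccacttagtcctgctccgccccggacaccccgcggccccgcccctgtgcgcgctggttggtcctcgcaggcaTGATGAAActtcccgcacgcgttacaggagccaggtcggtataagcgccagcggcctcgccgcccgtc
ATF3 (chr1:212565157-212565406, plus strand): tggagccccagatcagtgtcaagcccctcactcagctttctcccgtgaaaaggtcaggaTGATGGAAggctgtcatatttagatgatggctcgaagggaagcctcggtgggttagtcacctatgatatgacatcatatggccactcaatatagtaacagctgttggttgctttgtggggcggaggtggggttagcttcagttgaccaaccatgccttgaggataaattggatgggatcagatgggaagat
CEBPG (chr19:33373863-33374112, plus strand): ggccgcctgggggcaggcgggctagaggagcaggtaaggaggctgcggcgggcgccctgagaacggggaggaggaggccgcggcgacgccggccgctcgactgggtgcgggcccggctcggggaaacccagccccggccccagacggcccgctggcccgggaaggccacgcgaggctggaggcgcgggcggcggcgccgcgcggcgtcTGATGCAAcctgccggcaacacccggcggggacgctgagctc
The letters lay at -209 to -202 in CHAC1, -68 to -61 in ASNS, -191 to -184 in ATF3 and -42 to -35 in CEBPG, counted from the start. In ASNS they overlap a match to GAANNTTC, the paired heat shock units searched for below, at -64 to -57. A match of letters describes the sequence and is not evidence of a bound factor.

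Several amino acid synthesis genes, those of the serine pathway and asparagine synthetase among them, were lower with malin. Of 26 measured enzymes of amino acid synthesis and one-carbon metabolism, 11 were lower and 2 higher by 1.5-fold, with a median of -0.33. Of the 26, 16 had their highest level in the empty-vector library, against 3018 of all 9532 genes. ASNS, asparagine synthetase, was at 341.73 and 106.24 FPKM (-1.68), while the other lines held 55.9 to 68.63 FPKM. CTH, which makes cysteine from cystathionine, was at 44.1 and 12.23 FPKM, and at most 2.47 FPKM elsewhere. Both ASNS and CTH thus stayed above the other lines with malin. CBS, which makes cystathionine, was at 123.19 and 95.82 FPKM, under 1.5-fold lower. In the serine pathway, PHGDH, its first enzyme, was at 287.75 and 166.37 FPKM, PSAT1 at 189.4 and 93.37 FPKM, PSPH at 33.55 and 21.41 FPKM, and the mitochondrial enzymes SHMT2 and MTHFD2 at 172.85 and 105.74 FPKM and at 219.4 and 107.64 FPKM. GLUL, glutamine synthetase, went the other way, at 50.72 and 91.9 FPKM, as did PYCRL, a proline enzyme, at 13.93 and 23.06 FPKM, whereas the proline enzyme PYCR1 was lower, at 144.66 and 86.98 FPKM. ASS1, the arginine synthesis enzyme, was at 75.91 and 31.0 FPKM, while the other lines held 0.84 to 8.2 FPKM.

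Amino acid transporters were split, with 10 of 20 lower and 4 higher by 1.5-fold and a median of -0.49. Both chains of the cystine importer were lower, SLC7A11 at 38.51 and 13.77 FPKM and its partner SLC3A2 at 279.38 and 102.66 FPKM. SLC7A1, the cationic amino acid transporter, was at 70.98 and 30.09 FPKM, and SLC1A4, a carrier of small neutral amino acids, at 11.94 and 3.45 FPKM. SLC7A5, the leucine transporter, was at 112.94 and 59.73 FPKM, and its malin level lay between those of H1299 (49.09 to 53.09 FPKM) and A549 (501.69 to 518.24 FPKM). The 4 higher members were SLC6A6, a taurine transporter (3.01 and 10.65 FPKM), SLC1A3, a glutamate transporter (4.98 and 9.98 FPKM), SLC36A4 (11.19 and 21.06 FPKM) and SLC7A2 (8.87 and 14.78 FPKM).

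The tRNA synthetase lists of the cytosol and of mitochondria had medians of opposite sign. Of 20 cytosolic synthetase genes, 7 were lower and 2 higher by 1.5-fold, with a median of -0.36. SARS, for serine, was at 236.48 and 119.83 FPKM, YARS, for tyrosine, at 169.87 and 87.46 FPKM, and CARS, for cysteine, at 45.01 and 22.29 FPKM. AARS, GARS, IARS and TARS had log2 differences between -0.79 and -0.61. HARS and QARS, for histidine and glutamine, were higher, at 31.67 and 49.01 FPKM and at 53.5 and 83.44 FPKM. Of 17 mitochondrial synthetase genes, 1 was lower, PARS2 (8.08 and 3.22 FPKM), 0 were higher, and the median was 0.15. Over the stress, synthesis, transporter and cytosolic synthetase lists together, 40 of 84 genes were lower (47.6%) and 9 higher (10.7%), against 6.65% and 4.2% of all genes. In the same 84 genes at 1.5-fold, A549 had 1 higher and 0 lower, and H1299 had 0 of either. Over all 9532 genes these counts were 19 higher and 32 lower in A549 and 19 and 8 in H1299.

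**Figure D3:**
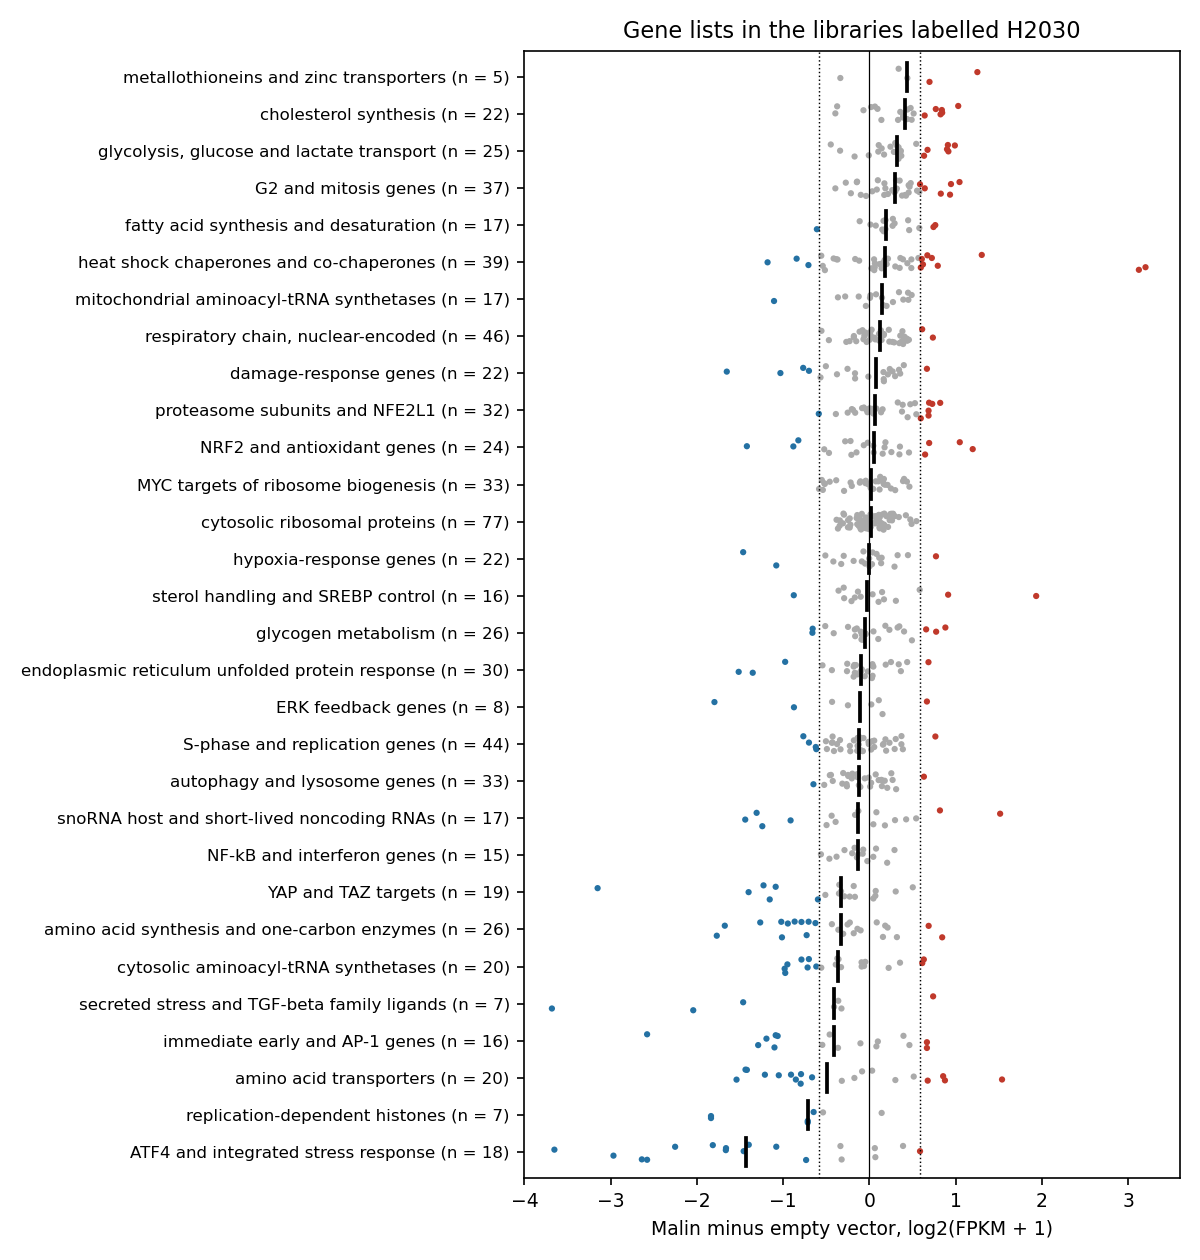
Log2 difference (malin minus empty vector, log2(FPKM + 1), horizontal) of each measured member of the gene lists in the libraries labelled H2030, one dot per gene; black bars are list medians, n is the number of measured members, and red and blue dots lie beyond 1.5-fold (dotted lines). The integrated stress list has the lowest median, -1.43, and the list of metallothioneins and zinc transporters (5 genes, 0.44, or 0 without the filter on low values) and cholesterol synthesis (0.42) have the highest.

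The unfolded protein response of the endoplasmic reticulum was not lower as a whole. Of 30 measured genes 3 were lower and 1 higher by 1.5-fold, with a median of -0.10. XBP1, the transcription factor spliced by IRE1, was at 174.1 and 60.27 FPKM, while the other lines held 16.51 to 27.21 FPKM. DNAJB9, a co-chaperone of the lumen, was at 12.53 and 4.3 FPKM, and HERPUD1, of the degradation machinery, at 53.88 and 26.9 FPKM. The abundant chaperones stayed under 1.5-fold in either direction: HSPA5, which encodes BiP, was at 162.35 and 152.73 FPKM, HSP90B1 at 192.87 and 248.77 FPKM and CALR at 261.19 and 331.11 FPKM. SDF2L1 was the 1 member higher, at 25.19 and 41.14 FPKM. Of the sensors, ATF6 was at 10.94 and 7.84 FPKM, and ERN1, which encodes IRE1, was under the limit at 3.0 and 2.09 FPKM.

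The genes of the inducible HSP70 chaperone were higher with malin. HSPA1A was at 108.41 and 1006.49 FPKM. The ratio of 9.28 (interval 8.88 to 9.71) corresponds to the highest log2 difference of all genes compared, 3.20. HSPA1B was at 87.19 and 768.91 FPKM (ratio 8.82, interval 8.4 to 9.26). In the other 4 libraries HSPA1A stood at 99.19 to 161.4 FPKM and HSPA1B at 77.29 to 109.73 FPKM, so the malin library labelled H2030 stood apart and its control did not. These genes encode the same HSP70 protein in GENCODE release 29, fragments can be shared between the copies, and their separate values are uncertain.

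The rest of the chaperone list differed by much less. Of 39 measured members, 9 were higher and 3 lower by 1.5-fold, with a median of 0.18. HSPA8, the constitutive HSP70, was at 231.5 and 573.06 FPKM (1.30 on the log2 scale), and both values lay under the 1303.51 to 1645.02 FPKM of the other lines. The cytosolic HSP90 genes HSP90AA1 and HSP90AB1 stood at 459.18 and 759.52 FPKM and at 763.38 and 1164.97 FPKM. The mitochondrial chaperonin pair HSPD1 and HSPE1 was at 407.6 and 627.88 FPKM and at 151.45 and 263.27 FPKM. In 18 of the 39 genes the empty-vector library had the lowest level of the 6 libraries, against 1217 of all 9532 genes. Other genes known to be induced by heat shock differed little: DNAJB1 was at 26.91 and 28.0 FPKM, BAG3 at 15.58 and 16.25 FPKM and HSPB1 at 58.4 and 59.38 FPKM. HSPH1, the HSP110 chaperone, was at 41.77 and 58.93 FPKM, under 1.5-fold. HSF1, the factor that drives the response, was lower, at 65.08 and 39.5 FPKM, and HSF2 was at 30.34 and 22.52 FPKM. The other lower members were HSPB8, a small heat shock protein (32.8 and 13.92 FPKM), and DNAJB2 (24.4 and 13.16 FPKM).

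Facing heat shock units, GAANNTTC, were searched in the same windows. The letters read the same on both strands. They stood in 6 of the 9 higher members (HSP90AA1, HSP90AB1, HSPA1A, HSPA1B, HSPA8 and HSPD1), in 10 of 26 others and in 5.64% of genes compared. Among all genes higher by 1.5-fold, 21 of 321 (6.54%) held the letters. DNAJB1 and HSPB1, which differed little, were among the 10. For the 3 list members with the highest log2 differences, the first promoter that held the letters follows, with the letters in capitals.
HSPA1A (chr6:31815293-31815542, plus strand): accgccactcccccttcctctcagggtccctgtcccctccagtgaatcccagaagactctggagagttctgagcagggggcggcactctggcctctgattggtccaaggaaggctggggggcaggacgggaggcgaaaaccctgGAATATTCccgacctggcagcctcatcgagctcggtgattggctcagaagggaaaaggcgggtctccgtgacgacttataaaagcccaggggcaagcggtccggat
HSPA1B (chr6:31827488-31827737, plus strand): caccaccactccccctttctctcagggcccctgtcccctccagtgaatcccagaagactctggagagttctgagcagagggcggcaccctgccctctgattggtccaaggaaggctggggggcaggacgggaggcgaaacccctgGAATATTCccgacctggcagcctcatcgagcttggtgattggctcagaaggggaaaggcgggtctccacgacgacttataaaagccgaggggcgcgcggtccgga
HSPA8 (chr11:123062137-123062386, minus strand): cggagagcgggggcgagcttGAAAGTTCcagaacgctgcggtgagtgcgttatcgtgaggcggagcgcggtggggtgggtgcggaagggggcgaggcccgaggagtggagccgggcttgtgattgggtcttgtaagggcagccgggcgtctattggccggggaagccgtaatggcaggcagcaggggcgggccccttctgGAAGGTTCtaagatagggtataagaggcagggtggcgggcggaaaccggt
HSPA1A and HSPA1B hold the same 8 letters, GAATATTC, at -106 to -99 and at -105 to -98, and HSPA8 holds a match at -230 to -223 and another at -50 to -43.

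Several cholesterol synthesis genes were higher with malin and none were lower past 1.5-fold, from a control level that was often the lowest of the 6 libraries. Of 22 measured genes 6 were higher and 0 lower by 1.5-fold, with a median of 0.42. In 14 the empty-vector library was the lowest of the 6. The same held for 1217 of all 9532 genes and for 172 of the 400 higher by 1.5-fold. FDFT1, squalene synthase, was at 29.68 and 61.71 FPKM, while the other lines held 74.27 to 97.0 FPKM. HMGCS1, which makes the precursor of mevalonate, was at 11.97 and 22.29 FPKM, and SQLE, squalene epoxidase, at 24.04 and 43.38 FPKM. Their malin levels were still below those of the other lines, at least 24.19 FPKM for HMGCS1 and 49.93 FPKM for SQLE. MSMO1 (13.3 and 24.62 FPKM) and IDI1 (23.07 and 36.55 FPKM) were also among the higher genes.

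Genes that control and use sterols were mixed. INSIG1 was at 16.13 and 64.49 FPKM (ratio 4.0, interval 3.55 to 4.51), which placed its malin level above all other libraries (14.64 to 41.77 FPKM). STARD4, a sterol carrier, was at 5.28 and 10.83 FPKM. The regulators SREBF1, SREBF2 and SCAP were at 13.3 and 11.39 FPKM, 29.35 and 33.14 FPKM, and 23.44 and 26.08 FPKM, all under 1.5-fold. NR1H3, an oxysterol receptor, was lower, at 7.68 and 3.73 FPKM. In all 2 of 16 were higher and 1 lower, with a median of -0.03, which lay between 0.02 and 0.16 with either scaling or another filter. The sterol response element TCACNCCAC, searched on both strands, stood in 0 of 5 higher members of both sterol lists with a promoter, 1 of 26 others (SREBF2) and 1.12% of genes compared.

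Fatty acid genes had 2 of 17 higher, the citrate lyase gene ACLY (89.97 and 151.31 FPKM) and the desaturase gene SCD (84.79 and 144.81 FPKM), and 1 lower, FADS3 (18.77 and 11.97 FPKM), with a median of 0.19. FASN, fatty acid synthase, was at 59.43 and 89.34 FPKM, just under 1.5-fold on this scale.

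**Figure D4:**
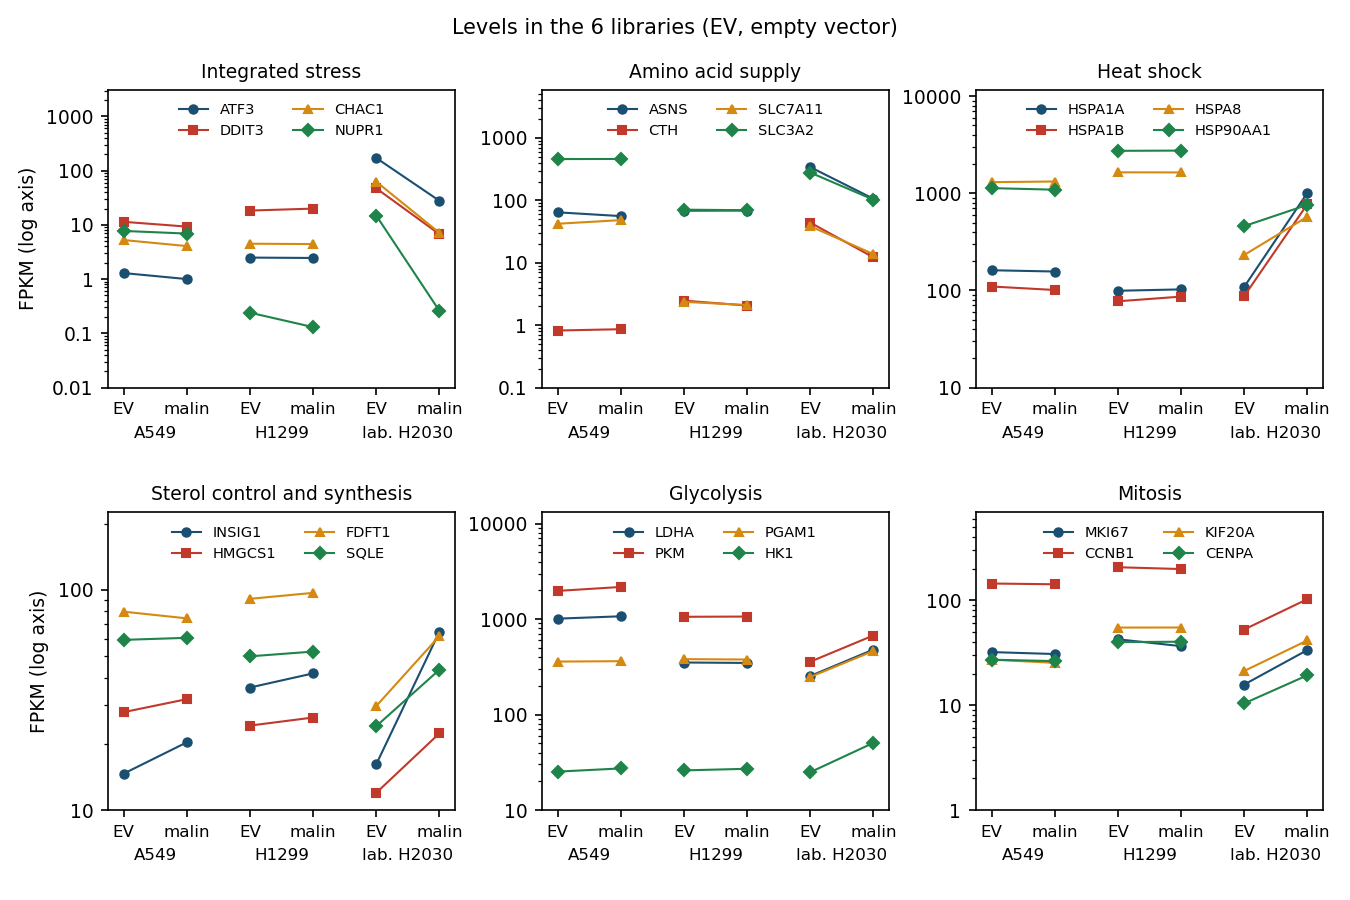
FPKM (log axis, a different range in each panel) of 24 genes in each of the 6 libraries; lines join the empty vector (EV) and malin libraries of a line, and lab. H2030 is the line labelled H2030. The steep segments lie at the right of each panel, down for the stress and amino acid genes, such as ATF3 from 170.99 to 27.82 FPKM, and up for the others, such as HSPA1A from 108.41 to 1006.49 FPKM.

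Several glycolytic genes were higher with malin. Of 25 measured genes 6 were higher and 0 lower by 1.5-fold, with a median of 0.32. HK1, a hexokinase at the pathway's entry, was at 24.87 and 50.46 FPKM, while the other lines held 25.25 to 27.26 FPKM. ALDOA was at 404.04 and 627.94 FPKM, PGK1 at 159.29 and 254.84 FPKM, and PGAM1 at 247.46 and 463.09 FPKM. PKM and LDHA, the pyruvate kinase and lactate dehydrogenase genes, stood at 357.48 and 673.19 FPKM and at 253.35 and 479.35 FPKM. For PKM, both values lay below the other lines (at least 1057.21 FPKM). GAPDH and ENO1 stayed near their control, at 2065.13 and 2226.62 FPKM and at 1194.52 and 1344.69 FPKM, as did the glucose transporter SLC2A1 at 10.44 and 12.56 FPKM.

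Other hypoxia-response genes, which overlap in part with glycolysis and stress in their known control, had no common direction, with 1 of 22 higher, 2 lower and a median of 0.00, or 0.06 with median-of-ratios scaling. VEGFA, the angiogenic factor, was lower at 39.54 and 13.71 FPKM, and DDIT4, an mTORC1 inhibitor, at 181.02 and 85.16 FPKM. HILPDA, a lipid droplet protein, was higher at 9.84 and 17.52 FPKM. HIF1A, the oxygen-regulated factor, was at 28.98 and 28.94 FPKM.

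Glycogen metabolism, the pathway of malin, was also mixed. Of 26 measured genes 3 were higher and 2 lower, with a median of -0.05, which turned to 0.01 with median-of-ratios and with quantile scaling. GYS1, glycogen synthase, was at 12.35 and 21.84 FPKM, and PHKG2, a phosphorylase kinase subunit, at 9.02 and 17.46 FPKM. PYGL, the liver-type glycogen phosphorylase, was at 131.48 and 83.03 FPKM, with both values above the other lines (25.72 to 44.48 FPKM). Thus the synthase was higher and 1 phosphorylase lower, while PYGB, another phosphorylase, was at 18.86 and 16.96 FPKM. GBE1, the branching enzyme, was at 6.02 and 7.81 FPKM. PPP1CC, a catalytic subunit of protein phosphatase 1, was at 94.46 and 149.68 FPKM, and PRKAB1, an AMPK subunit, at 23.0 and 14.19 FPKM.

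More immediate early genes were lower than higher. Of 16 measured 6 were lower and 2 higher, with a median of -0.41. JUN, an AP-1 subunit, was at 130.96 and 56.73 FPKM, both above the 10.34 to 23.09 FPKM of the other lines. KLF4 (7.53 and 2.49 FPKM), KLF6 (23.11 and 10.25 FPKM) and KLF10 (20.23 and 9.16 FPKM) were lower, as were ATF3 and CYR61. BTG2 and IER3 were higher, at 6.98 and 11.68 FPKM and at 3.98 and 6.91 FPKM. FOS and EGR1 were below the limit, at 3.9 and 1.8 FPKM and at 3.09 and 1.56 FPKM. MYC was at 87.97 and 121.8 FPKM. Of 8 genes of ERK feedback, DUSP1, a MAP kinase phosphatase (83.36 and 23.3 FPKM), and SPRED2 (10.73 and 5.4 FPKM) were lower and IER3 higher.

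Genes of the YAP and TAZ list were lower where they differed. The list holds targets and also genes of the pathway itself, such as YAP1, WWTR1, TEAD1 and LATS1. Of 19 measured 6 were lower and 0 higher by 1.5-fold, with a median of -0.33. In 11 the malin library was the lowest of the 6. The same held for 1062 of all 9532 genes and for 150 of the 634 lower by 1.5-fold. ANKRD1, a nuclear target of YAP, was at 111.47 and 11.66 FPKM (control to malin ratio 9.56, interval 8.29 to 11.1), while the other lines held 5.71 to 19.77 FPKM. CYR61 and CTGF, secreted matricellular proteins, stood at 44.99 and 20.66 FPKM and at 13.25 and 8.43 FPKM. AMOTL2 (18.53 and 6.4 FPKM), AJUBA (22.36 and 8.98 FPKM) and GADD45B (16.75 and 6.97 FPKM) were the others. YAP1 and WWTR1, which encode YAP and TAZ, were under 1.5-fold, at 30.14 and 23.39 FPKM and at 6.63 and 9.82 FPKM.

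Of 22 measured damage-response genes, of cell cycle arrest and cell death, 4 were lower and 1 higher, with a median of 0.08, which turned to -0.09 among genes with a mean of at least 20 FPKM. GADD45A, a stress sensor of cell cycle arrest, was at 78.44 and 24.26 FPKM, and CDKN1A, the inhibitor p21, at 19.29 and 8.93 FPKM. PMAIP1, the pro-apoptotic protein NOXA, was at 144.57 and 84.54 FPKM, while the other lines held 7.21 to 10.05 FPKM. SERTAD1 was at 8.68 and 4.96 FPKM and BTG2 was the higher member. MDM2 was at 24.35 and 21.6 FPKM, under 1.5-fold.

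Secreted stress ligands held the lowest log2 difference of all. INHBE, an inhibin beta subunit of the TGF-beta family, was at 19.13 and 0.57 FPKM (-3.68), an estimated 372 and 13 fragments (control to malin ratio 33.6, interval 19.5 to 64). It was at 0.12 to 0.5 FPKM in the other 4 libraries, so the malin library was close to them and the control stood apart. STC2, a stanniocalcin, was at 74.96 and 17.44 FPKM, and BMP4 was higher at 4.12 and 7.55 FPKM. GDF15, a stress hormone named here after its values were seen, was under the limit at 2.05 and 0.18 FPKM. Of 7 measured ligands 3 were lower, INHBE, STC2 and VEGFA, and 1 higher.

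Several mitotic genes were higher with malin, and few S-phase genes differed. Of 37 measured G2 and mitosis genes 6 were higher and 0 lower, with a median of 0.30. In 17 the empty-vector library was the lowest of the 6, against 1217 of all 9532 genes. MKI67, the Ki-67 proliferation marker, was at 15.69 and 33.46 FPKM, CCNB1, a mitotic cyclin, at 52.56 and 102.24 FPKM, and KIF20A, a kinesin of cytokinesis, at 21.13 and 41.33 FPKM. CENPA, the centromeric histone, was at 10.38 and 19.22 FPKM and DLGAP5 at 28.03 and 44.33 FPKM, and the remaining gene was CKS2 (179.9 and 270.88 FPKM). For MKI67 the malin level was within the 30.7 to 42.43 FPKM of the other lines, and for CCNB1 below their 141.94 to 206.37 FPKM. FOXM1, the factor that drives this set, was at 83.02 and 75.12 FPKM. Of 44 S-phase and replication genes 4 were lower and 1 higher, with a median of -0.11. The lower ones were CDT1, a licensing factor (62.86 and 36.58 FPKM), E2F2 (25.21 and 15.13 FPKM), RFC2 (100.66 and 65.08 FPKM) and ORC6 (74.4 and 48.22 FPKM). RRM2, a ribonucleotide reductase subunit, was higher, at 65.74 and 112.52 FPKM.

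Replication-dependent histone genes, whose messages lack a poly(A) tail, were mostly below the limit: 7 of 65 listed were measured, 5 of them lower, with a median of -0.71. HIST2H4A and HIST2H4B carry identical values, 13.85 and 3.16 FPKM, and HIST2H2AA3 and HIST2H2AA4 do as well, 9.35 and 5.31 FPKM. Each pair is of near-identical copies, amounts to 1 measurement and is uncertain. The counts above take each copy as a gene, so they hold fewer measurements than genes. The median is the value of HIST2H2AA3 and HIST2H2AA4. HIST1H1C, a linker histone, was at 18.88 and 11.7 FPKM. SLBP, which binds the end of histone messages, was at 80.4 and 105.61 FPKM.

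Antioxidant genes controlled by NRF2 went both ways, with 4 of 24 higher and 3 lower and a median of 0.05, or -0.11 among genes with a mean of at least 20 FPKM. HMOX1, haem oxygenase, was at 63.33 and 146.65 FPKM and PRDX1, a peroxiredoxin, at 367.11 and 760.72 FPKM. SRXN1 (14.4 and 23.91 FPKM) and GCLM (7.21 and 11.86 FPKM) were also higher. SLC7A11, MAFG (21.86 and 11.41 FPKM) and the ferritin gene FTH1 (826.57 and 466.85 FPKM) were lower. NFE2L2, which encodes NRF2, was at 25.7 and 20.99 FPKM. Of 5 measured genes of metallothioneins and zinc transporters 2 were higher, the metal-binding metallothioneins MT1X (20.65 and 50.61 FPKM) and MT2A (41.2 and 67.48 FPKM). The metallothionein gene MT1F, at 10.49 and 8.1 FPKM, and the zinc transporter genes SLC39A10 and SLC30A1 were under 1.5-fold.

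Host genes of small nucleolar RNAs differed in both directions. Of 17 measured, 4 were lower and 2 higher, with a median of -0.13. GAS5 was at 329.53 and 138.85 FPKM, SNHG1 at 292.8 and 107.35 FPKM, SNHG15 at 147.72 and 59.12 FPKM and ZNFX1-AS1 at 140.35 and 74.06 FPKM. These transcripts are known to be short-lived and cleared when translated. SNHG3 (13.94 and 41.77 FPKM) and DANCR (44.44 and 79.14 FPKM) were higher. Reads of a host gene and of the small RNA in its intron, or of an antisense partner, may not be told apart, since the sources used here do not say if strand was used in counting.

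Several large groups differed little. Of 77 cytosolic ribosomal protein genes 0 were past 1.5-fold in either direction, with log2 differences from -0.38 to 0.55 and a median of 0.01, a sign that turned with quantile normalization. Of 33 ribosome biogenesis targets of MYC 0 were past that fold either (median 0.02), and of 15 genes of NF-kB and interferon signalling also 0 (median -0.13). No test was run for these counts, since each vector had 1 library in the pair. Nuclear-encoded respiratory chain genes had 2 of 46 higher, UQCRFS1 (76.26 and 117.14 FPKM) and NDUFA9 (41.76 and 70.25 FPKM), and autophagy and lysosome genes 1 of 33 each way, ATG9A higher (14.26 and 22.67 FPKM) and OPTN lower (14.07 and 8.62 FPKM).

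Several proteasome subunit genes were higher with malin. Of 32 genes of the proteasome list 6, all of them subunits, were higher, and the list's median was 0.07. PSMD1, PSMA2, PSMA1, PSMD6, PSMD3 and PSMB1 differed by 0.60 to 0.82 on the log2 scale. The 1 lower member was NFE2L1, no subunit but a factor that controls proteasome genes, at 55.6 and 36.71 FPKM.

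The 25 lowest genes also held genes outside the pathway lists described above. TNFRSF12A, the receptor of the cytokine TWEAK, was at 40.26 and 6.02 FPKM, both under the 105.08 to 173.94 FPKM of the other lines. CALCB, a calcitonin gene-related peptide, was at 73.3 and 19.5 FPKM and at most 0.1 FPKM elsewhere. ANXA1, an annexin of the carcinoma marker list, was at 60.91 and 16.16 FPKM, and S100P at 12.33 and 0.49 FPKM from an estimated 121 and 6 fragments. UPP1, a uridine phosphorylase, was at 23.64 and 6.48 FPKM, and FHIT, a dinucleoside hydrolase, at 10.18 and 2.4 FPKM. C6orf48, another host of small nucleolar RNAs, was at 329.6 and 91.25 FPKM. The rest were TMEM59L, LOC100506714, TMEM116, SHC2 and TTLL1, each at 15.26 FPKM or less with the empty vector. Under 0.5 FPKM with malin and at least 5 with the empty vector were 5 genes: NUPR1, S100P, BEST1, a chloride channel (7.23 and 0.27 FPKM), and the small nucleolar RNAs SNORA21 and SNORA67, which were listed at 0 with malin but rested on an estimated 5 and 4 fragments in the control. The reverse pattern had 0 genes.

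Among the 25 highest genes outside the pathway lists was HAND1, a developmental transcription factor, at 21.41 and 58.74 FPKM against at most 0.06 FPKM in the other lines. VDAC1, the channel of the outer mitochondrial membrane, was at 130.19 and 301.1 FPKM, and STEAP3, an iron reductase, at 5.12 and 13.74 FPKM. KCTD12, an auxiliary subunit of GABA-B receptors, was at 15.41 and 35.25 FPKM, TUBB4A, a beta-tubulin, at 13.33 and 30.55 FPKM, and the homeobox gene HOXB13 at 3.76 and 10.2 FPKM. SNHG4 was at 10.04 and 34.12 FPKM, whereas SNORD17 rested on an estimated 4 and 16 fragments (ratio 3.86, interval 1.09 to 13.9). LRRC45, QPCTL, NAGPA, MLLT11, C18orf56, TPST2, FHOD1, TMSB15A and NS3BP completed the 25, with log2 differences of 1.07 to 1.36. All lists were read from the same pair of libraries, so their differences are not independent of each other.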

How the data were processed

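RNA sequencing of 6 libraries was used, and 2 of them, labelled H2030, were compared. FPKM values were deposited by the authors and are named so per the file headers. Cutadapt, FastQC, STAR and Cufflinks with build hg38 are named per the submitters' processing notes, without versions. FPKM depends on each library's total, so a few abundant genes can shift the rest, and near-identical copies can trade fragments.

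Tables were joined by gene identifier, and 35 symbols damaged in the files were replaced through it. Differences were log2 of FPKM plus a pseudocount of 1, over genes with a mean of at least 5. Fragment numbers were estimated from the spacing of low values of genes of 600 to 2000 bases, of which 75.4% to 79.9% lay within 0.2 of a whole number, and their 95% exact binomial (Clopper-Pearson) intervals cover counting error only. Where a transcript length was lacking, none is given. The counting was tested on simulated data. Sequences were RefSeq promoters of GRCh38.p14, matched for 7860 of the 9532 genes; coding sequences came from GENCODE release 29. Computation used Python 3.11.15 with biopython 1.88, scipy 1.17.1, pandas 2.3.3, numpy 2.4.6 and matplotlib 3.10.9.

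Gene lists (38, of which 7 of cell markers, matching 1058 of 1074 entries) were chosen, as was the comparison, with earlier results of these data known, so a list's direction is a description. Named genes were NHLRC1 and EPM2A, the 25 highest and 25 lowest, list regulators, up to 8 members per list by size of difference, genes under 0.5 FPKM in 1 library and at 5 or more in the other, and markers; list members beyond the 8, or with a mean under 5 FPKM, were named after their values were seen. Alternatives were pseudocounts of 0.1 and 5, means of 1 and 20, no filter, median-of-ratios (size factors 1.022 and 0.978) and quantile scaling, protein-coding genes alone, and leaving out histones, readthrough genes and genes sharing a protein. Some genes that these rules pick are left out of the text.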

Additional observations from a re-analysis of the deposited data

Results flagged for a closer look

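A few genes lay beyond 1.5-fold with malin in opposite directions in the line labelled H2030 and in another line. With 1 library per vector and line, the difference was not tested for any of them. The limit of a mean of 5 FPKM was set on the pair labelled H2030 only, so some were lower in the other line.

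Against A549 there were 4 such genes. PPP1R15A, the phosphatase subunit of the stress response, had a log2 difference of -2.25 in the pair labelled H2030 and 0.62 in A549 (14.7 and 23.18 FPKM). DUSP1, the MAP kinase phosphatase, had -1.80 and 0.65. HILPDA, the lipid droplet protein, had 0.77 and -0.80, and GPR89B, which has a near-identical copy, 0.65 and -0.68. In the same lines 5 genes lay beyond that fold in the same direction.

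Against H1299 there were 8, and 3 shared a direction. DHRS2, a short-chain dehydrogenase, had -1.51 in the pair labelled H2030 and 0.71 in H1299. LMCD1 had -0.65 and 0.64, DGCR6 -0.89 and 0.62, and IMMP1L -0.62 and 0.73. In H1299 DHRS2 stood at 1.37 and 2.88 FPKM and LMCD1 at 1.55 and 2.97 FPKM. There DGCR6 stood at 0.43 and 1.19 FPKM and IMMP1L at 2.15 and 4.21 FPKM, so all of these were under the limit. SNHG10, a host of small nucleolar RNA, had 0.80 and -0.66, and SCARNA12, a small Cajal body RNA, 0.90 and -0.59. BLOC1S5 had -0.73 and 2.66, and the readthrough gene BLOC1S5-TXNDC5, which overlaps it, 0.91 and -1.22, so fragments of both can be split between them.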

How the results depend on the processing

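As reported, 39 genes were higher and 133 lower at 2-fold, and 400 and 634 at 1.5-fold. These counts moved by more than 1.5 times with the pseudocount and the filter, which set how low genes are scaled and how many are compared. A pseudocount of 5 gave 14 and 61 at 2-fold and 195 and 367 at 1.5-fold. A mean of at least 1 FPKM gave 83 and 270, and 619 and 1110. A mean of at least 20 gave 20 and 55, and 181 and 249. No filter gave 94 and 301, and 704 and 1286. The other 5 alternatives stayed within 1.5 times. Of 191 named genes past 1.5-fold, 0 changed sign under any of 4 alternatives, which was largely fixed by their selection. A pseudocount cannot turn the sign of a ratio. Median-of-ratios and quantile scaling moved the median difference only from -0.023 to 0.036 and 0.012. Of 33 list medians 26 kept their sign under 7 alternatives, and the 7 that did not, with main medians from -0.05 to 0.44, were those of antioxidant, ribosomal protein, glycogen, hypoxia, metallothionein and zinc transporter, damage-response and sterol handling genes. No paired analysis was possible because each vector had 1 library in this line. Below about 5 FPKM, few fragments limit what a ratio can show.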

Other observations

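Genes outside the lists, named after their values were seen, included regulators that were lower with malin (empty vector given first). EIF1, a factor that selects the start codon, was at 971.5 and 363.06 FPKM, with the empty-vector value above the 272.73 to 514.35 FPKM of the other lines. PCK2, the mitochondrial PEP carboxykinase, was at 59.63 and 22.91 FPKM. The splicing kinase genes CLK1 (53.19 and 20.18 FPKM) and CLK4 (13.76 and 5.52 FPKM) were lower. RHOB, a small GTPase, was at 165.81 and 60.11 FPKM, SMAD7, a feedback inhibitor of TGF-beta signalling, at 19.83 and 6.97 FPKM, and HES1, a Notch target, at 45.43 and 18.33 FPKM. Among higher genes, ACTG1, cytoplasmic actin, was at 705 and 1431.53 FPKM, and the spliceosome gene SNRPA1 at 93.06 and 188.66 FPKM. Of the 133 genes lower by 2-fold 45 (33.8%) were in a list, and of the 39 higher 11 (28.2%), against 7.6% of genes compared. The lists were chosen with these results known.

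Median differences per chromosome lay between -0.09 on chromosome 15 and 0.07 on chromosome 21. How the genes past 1.5-fold were spread over the chromosomes was not counted. Over 346 windows of 50 neighbouring genes, medians ranged from -0.22 to 0.12 in the pair labelled H2030, from -0.07 to 0.06 in A549 and from -0.05 to 0.08 in H1299. By transcript length, 8.96% of genes in the shortest of 5 equal groups and 4.3% in the longest were lower by 1.5-fold, and 4.51% and 3.82% were higher. By GC content, the share of higher genes was 1.99% in the group with the least GC and between 4.24% and 5.53% in the others.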
